A study of Mus musculus with 18 samples.

Results

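Calcium, phosphate and zinc enter milk through a small set of pumps and transporters of the mammary epithelium, and 10 genes of this set were followed across sorted cells of the mouse mammary gland. They are the plasma membrane calcium pumps Atp2b1, Atp2b2 and Atp2b4, the Golgi calcium pumps Atp2c1 and Atp2c2, the sodium-phosphate cotransporter Slc34a2, the zinc exporters Slc30a2 and Slc30a4, the secreted hormone Pthlh and the calcium-sensing receptor Casr. They were taken by gene symbol from the deposited table, in which each symbol had 1 row, and make up 10 of 46257 genes. All 10 passed the filter for testing, which asked for 10 or more in 2 or more of the 18 libraries. Casr passed through 2 libraries only, those in which it was highest.

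Fluorescence-activated sorting separated basal cells, luminal cells with the estrogen receptor (ER+) and luminal cells without it (ER-), each taken at puberty, adulthood and mid pregnancy. Every mouse group carried the same genotype, ERrtTA/TetOCre/rosaYFP, in which, as its name reads, a tetracycline-responsive Cre is combined with a yellow fluorescent reporter, so no group lacked these alleles. Ages, the day of pregnancy, sorting gates and any use of doxycycline are not stated in these sources. Each of the 9 groups held 2 libraries, and since the labels do not say whether these came from separate animals, the p-values rest on a spread between libraries that may be technical only. The cell type label of the basal samples of puberty and pregnancy reads "BC luminal cells", and groups were therefore taken from the sample titles. Values below are read counts that were scaled to a common library total near 20000000, given for replicate 1 and then replicate 2. Differences are log2 differences of value + 1 with their standard error (SE), and a gene is called when its adjusted p is under 0.05 (limma, Benjamini-Hochberg over 22315 genes).

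Milk is very rich in calcium, and the secreting cell must take the ion up, keep its level in the cytosol low and deliver it to milk. Golgi pumps load calcium into the secretory vesicles that carry casein, and plasma membrane pumps push it across the apical membrane, where Atp2b2 is known as the main pump of lactation. Phosphate accompanies calcium in casein micelles, zinc is loaded into vesicles by exporters of the Slc30 family, and the gland signals its calcium need to bone by secreting the hormone encoded by Pthlh under control of the calcium-sensing receptor.

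The promoters of the phosphate transporter Slc34a2 and of the zinc exporter Slc30a4 are shown because these genes are compared between pregnancy and the other stages below and because metal-responsive control is a known feature of zinc handling. The RefSeq promoter table on GRCm38.p6 held 13 promoters for 9 of the 10 genes, each running from 250 bases before to 50 bases after the start, and none was found for Atp2c2. Printed are the 250 bases before the RefSeq start and the first 10 after it, 5′ to 3′ on the strand of the gene, with capitals marking matches on either strand to the core of the metal response element, TGCACNC or TGCGCNC.
Slc34a2 (chr5:53049103-53049362, plus strand): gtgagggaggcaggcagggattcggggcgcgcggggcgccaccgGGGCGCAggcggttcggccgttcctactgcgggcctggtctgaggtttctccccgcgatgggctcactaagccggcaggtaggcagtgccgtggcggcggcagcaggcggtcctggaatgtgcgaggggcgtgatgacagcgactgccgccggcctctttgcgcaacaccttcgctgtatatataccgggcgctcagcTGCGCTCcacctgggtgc
Slc30a4 (chr2:122702654-122702913, minus strand): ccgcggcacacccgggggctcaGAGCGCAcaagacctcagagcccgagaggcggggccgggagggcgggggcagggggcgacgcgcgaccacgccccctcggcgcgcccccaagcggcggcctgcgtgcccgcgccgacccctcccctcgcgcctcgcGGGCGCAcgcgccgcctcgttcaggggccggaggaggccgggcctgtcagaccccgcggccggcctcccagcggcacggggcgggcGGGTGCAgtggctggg
The Slc30a4 promoter held 3 matches, beginning 228, 92 and 6 bases before the start. Slc34a2 held 2, at 206 and 8 bases, and Slc30a2, not printed, held 2, at 214 and 200 bases. The Slc30a4 start is that of the gene in GENCODE, whereas the starts used for Slc34a2 and Slc30a2 lie 11272 and 285 bases inside the GENCODE gene, whose longest extent begins at other transcripts, and the Slc30a2 window overlaps their first exon. At least 1 match lay in 7 of the 13 promoters and in 6 of the 9 genes, against 25.7% of 32851 promoters of the same length. These promoters are rich in G and C, at 81.7% in Slc30a4, 68.7% in Slc34a2 and 63.0% in Slc30a2, against a median of 52.7% over all promoters, and the motif cores are themselves rich in these bases. The motif TTCNNNGAA, bound by the prolactin-activated factor STAT5, was in 8.30% of all promoters and in none of the 13. These are matches of letters in a short window and say nothing of binding.

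Depth was estimated from the steps between low values and ran from 2406265 to 11292254 reads per library, with 1 read worth 1.75 to 8.25 on the scaled count. Basal markers separated basal from luminal libraries, with summed values of 10 genes of 147734 to 315895 in the former and 979 to 38358 in the latter. Other lists were higher in basal libraries too (limma), with 8 of 8 endothelial (median difference 2.08), 5 of 6 pericyte and 5 of 8 fibroblast markers (1.28). Pan-luminal markers were lower in basal cells in 8 of 8 genes, yet their sums did not separate all libraries. These sums were 20312 and 46868 in pubertal, 66023 and 55560 in adult and 27091 and 34935 in pregnancy basal libraries. Pregnancy ER- replicate 2 held 61090, below adult basal replicate 1. In adult basal cells the summed 14 milk protein genes were 307796 and 66682. The part of luminal RNA in basal values was not tested. Some libraries stood apart and touch results below. In pregnancy ER+ cells the summed 10 ER+ luminal markers were 86823 and 34634, against 180972 to 229261 in the other 4 ER+ libraries and up to 47869 in adult ER- and 37543 in pubertal basal ones, so these markers did not separate that group's replicate 2, and the summed 8 ER- luminal markers were 14671 and 32227, against 4805 to 9724. In replicate 2 of that group Elf5, the transcription factor that defines ER- luminal cells, was at 11434 and Esr1, the estrogen receptor, at 2096, whereas replicate 1 had 4329 and 5666. Not all ER- luminal markers followed Elf5. Aldh1a3 was at 568 and 511 and Tspan8 at 200 and 172 in replicates 1 and 2, while the remaining markers of the list were higher in replicate 2. Limma called 1 of the 8 markers higher in pregnancy ER+ cells than at puberty and 4 higher than in adults. Replicate 1 of the pubertal ER+ and ER- groups carried more basal markers (12443 and 14280) and endothelial markers (9233 and 8632) than replicate 2 (979 and 3580, then 1152 and 1915), while the summed 8 fibroblast markers were lower in replicate 1 (18914 and 15367) than in replicate 2 (61300 and 66253). In pregnancy ER- cells the summed 14 milk protein genes were 902693 in replicate 1 and 157289 in replicate 2. The summed 6 adipocyte markers were 2168 to 30506 in pubertal and 1336 to 3171 in pregnancy libraries, and 4 of the 6 were called lower in pregnancy in each population (limma). Their part in differences between stages was not tested. Less RNA of a gene per cell and fewer cells expressing it cannot be told apart in such bulk samples.

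**Figure D1:**
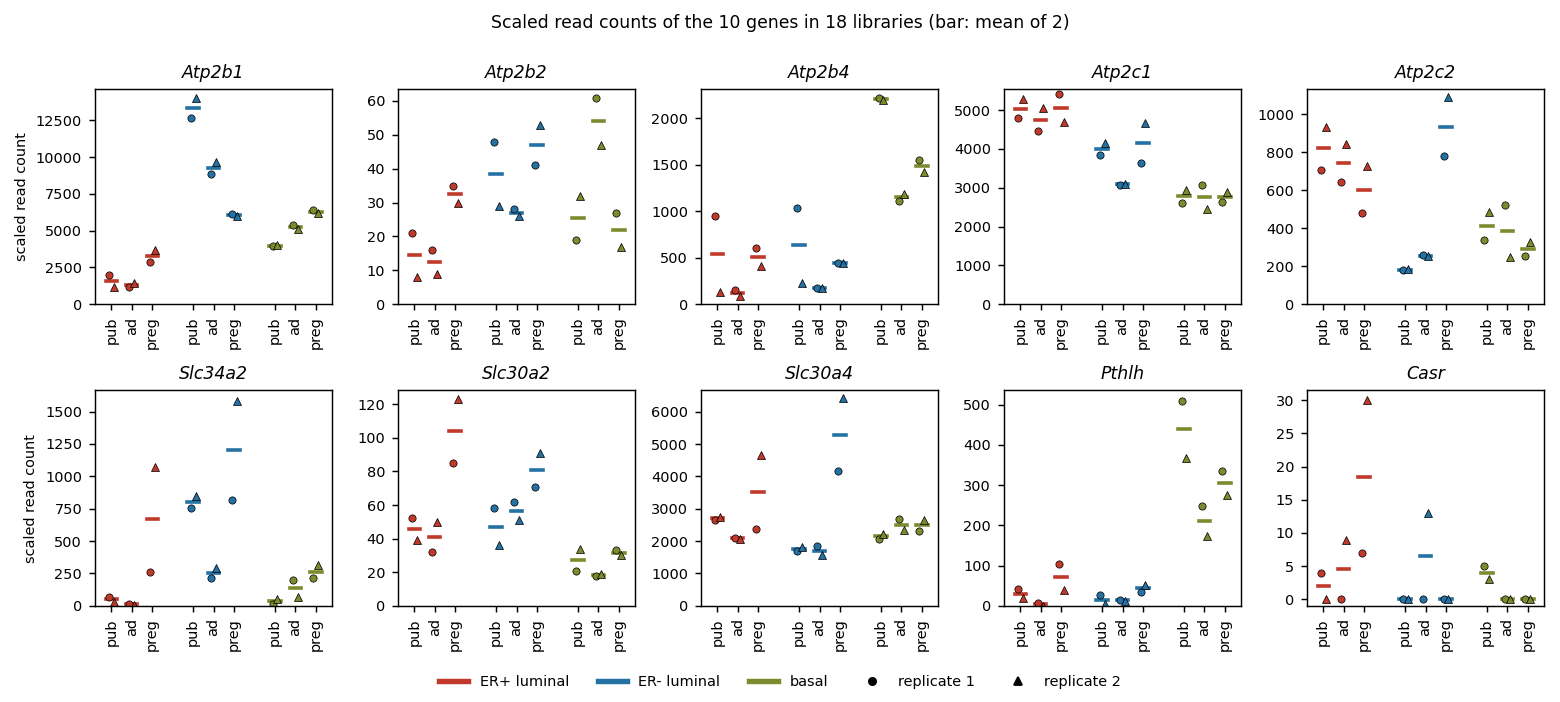
Scaled read counts (vertical axis, a linear scale per gene) of the 10 genes by population (colour) and by stage: puberty (pub), adulthood (ad) and mid pregnancy (preg). Circles are replicate 1, triangles replicate 2 and bars their mean; Atp2b1 is highest in pubertal ER- cells at 12658 and 14017, Pthlh in pubertal basal cells at 510 and 368, and Casr stays at 30 or below.

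Levels between genes were compared only after dividing by the exon length of each gene in kilobases. On this scale the mean over all 18 libraries was 491 for Slc30a4, 394 for Atp2c1, 367 for Atp2b1 and 159 for Atp2c2, the highest means of the set, though the order differed between groups, since Pthlh at 271 was above Atp2b1 at 261 in pubertal basal cells. Pthlh (77.8), Slc34a2 (75.7) and Atp2b4 (65.8) came next, followed by Slc30a2 at 14.1. Atp2b2 at 2.41 and Casr at 0.836 were the lowest.

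Between ER+ and ER- luminal cells, averaged over the stages, 5 of the 10 genes were called, 2 higher and 3 lower in ER+ cells, where 25.5% of all genes tested were called, 10.3% higher and 15.2% lower. The median difference was -0.09 over the 10 genes and -0.11 over all genes. Between basal cells and the mean of both luminal populations 7 were called, 3 higher and 4 lower in basal cells, against 42.5% of all genes, 20.9% higher and 21.5% lower, with medians of -0.32 and -0.03. Without the 6 pregnancy libraries, a removal chosen after seeing the data, the basal count was 4, since Atp2b1, Atp2c2 and Slc34a2 were no longer called (adjusted p of 0.207, 0.76 and 0.142, limma).

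Atp2b1, the widely expressed plasma membrane calcium pump also known as PMCA1, had the smallest adjusted p of the set between the luminal populations over the stages, 1.38e-08 (limma) at a difference of -2.30 ± 0.11 (SE). The gene lies on GRCm38 at chr10:98914406-99026143, plus strand. In ER- cells it was at 12658 and 14017 at puberty, 8848 and 9667 in adults and 6110 and 5986 in pregnancy. In ER+ cells it was at 1946 and 1164, then 1164 and 1403, then 2866 and 3714. Every ER- library was thus above every ER+ library, and the populations came closest in pregnancy. The ER+ minus ER- difference was -3.14 ± 0.19 (SE) at puberty with adjusted p = 3.23e-07 and -2.85 ± 0.19 in adults with adjusted p = 5.55e-07 (limma). In pregnancy it was -0.89 ± 0.19 with adjusted p = 0.0264 (limma), a call that was lost without pregnancy ER+ replicate 1 (adjusted p = 0.449) or without either pregnancy ER- replicate (0.0998 and 0.161).

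At puberty 3 of the 10 genes were called between the luminal populations, against 12.4% of all genes. In adults 4 were called, against 17.0%. In pregnancy Atp2b1 alone was called, against 1.85%.

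**Figure D2:**
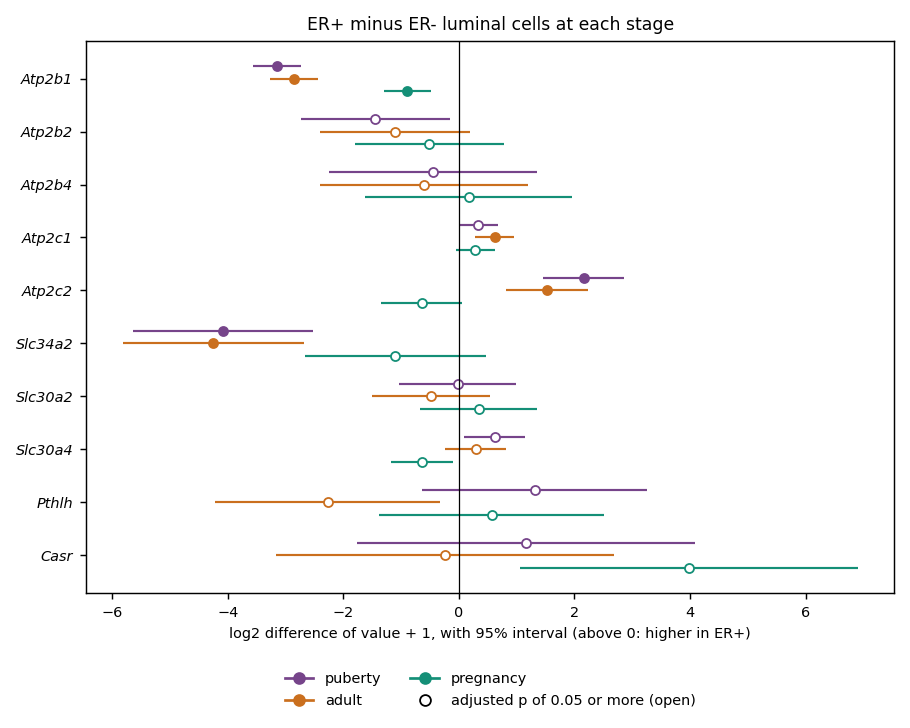
ER+ minus ER- luminal difference on the log2 scale (horizontal axis) for each of the 10 genes at 3 stages, points with 95% intervals, filled where the adjusted p is under 0.05. Atp2b1 and Slc34a2 lie left of 0 at all stages, and Atp2c2 lies right of 0 at puberty and in adults and at -0.64 with an interval that spans 0 in pregnancy.

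Atp2b1 moved in opposite directions in the luminal populations from puberty to pregnancy. It fell in ER- cells, from 13337.5 ± 961 (SD, n = 2) to 6048 ± 87.7, a log2 difference of -1.14 ± 0.19 (SE) with adjusted p = 0.00147 (limma), and rose in ER+ cells, from 1555 ± 553 to 3290 ± 600 (SD, n = 2), a difference of 1.12 ± 0.19 with adjusted p = 0.00118. The test of the difference between these changes gave -2.25 ± 0.27 with adjusted p = 0.000612 (limma), and it was -2.07 with adjusted p = 0.00273 without pregnancy ER+ replicate 2. The summed basal markers of ER+ cells were also higher in pregnancy (32120 and 26123) than at puberty (12443 and 979). The part that these and the ER- luminal markers in pregnancy ER+ cells have in the rise was not tested. In basal cells Atp2b1 was at 3956 and 3993 at puberty, 5376 and 5096 in adults and 6419 and 6163 in pregnancy. The basal rise of 0.66 from puberty to pregnancy did not pass the test (95% interval 0.25 to 1.07, adjusted p = 0.0971, limma), whereas the ER- change differed from the basal change by -1.80 ± 0.27 with adjusted p = 0.00898. That difference lost its call without pubertal ER- replicate 2, pregnancy basal replicate 2 or pregnancy ER- replicate 2 (adjusted p of 0.0728, 0.0527 and 0.0647). The summed ER- luminal markers of the ER- libraries were also lower in pregnancy (38124 and 39279) than at puberty (73091 and 81491). The median difference was -0.99 over the 8 genes, of which limma called 3 lower and none higher. Elf5 ran the other way, at 9699 and 10048 at puberty and 12758 and 11272 in pregnancy. Lbp was at 767 and 1725, then 1403 and 2419. The part of these markers in the fall of Atp2b1 was not tested. Against adults, Atp2b1 in pregnancy was lower in ER- cells by a difference of -0.61 (adjusted p = 0.0459), a call kept in 16 of 27 alternatives and lost without any of the 4 libraries compared (adjusted p of 0.0851 to 0.214), and higher in ER+ cells by 1.35 (adjusted p = 0.000229, limma).

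Ordered by mean, Atp2b1 ran from pubertal ER- through adult ER-, pregnancy basal, pregnancy ER-, adult basal, pubertal basal, pregnancy ER+ and pubertal ER+ to adult ER+ cells. Neighbouring groups in this order did not overlap, except pubertal and adult ER+ cells. On the log2 scale basal cells were above the mean of both luminal populations by 0.31 ± 0.10 (SE) with adjusted p = 0.0167 (limma), while on the scaled counts the basal mean, 5167, was below the luminal mean, 5795. The call was lost without the adult libraries (adjusted p = 0.329).

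Atp2b4, the plasma membrane pump PMCA4, had the largest basal minus luminal difference of the plasma membrane pumps, though Atp2b1 was the larger part of them in basal cells. The gene lies at chr1:133699457-133801041, minus strand. Basal cells held 2212 and 2194 at puberty, 1113 and 1182 in adults and 1545 and 1421 in pregnancy. ER+ cells held 944 and 135 at puberty, 156 and 83 in adults and 602 and 414 in pregnancy. ER- cells held 1039 and 229, then 171 and 176, then 445 and 444. Every basal library was above every luminal library, and the basal minus luminal difference was 2.36 ± 0.41 (SE) with adjusted p = 0.0008 (limma). The endothelial, pericyte and fibroblast markers that were also higher in basal libraries are given above, and their part in this difference and in that of Pthlh was not tested. The pubertal luminal replicates differed from each other more than any other pair, and it was replicate 1 of each group, the one with more basal and endothelial markers, that was high. The part of those markers in the difference between replicates was not tested. No difference of Atp2b4 between pregnancy and either other stage was called in any population, and puberty was not tested against adulthood for any gene.

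Atp2b2, the pump PMCA2 that lactating cells are known to use at their apical membrane, was close to the limit of detection. The gene lies at chr6:113743831-114042613, minus strand. The scaled count ran from 8 in a pubertal ER+ library to 61 in an adult basal one, which stands for 1 to 24 reads, and 16 libraries held under 20 reads. In pregnancy it was at 35 and 30 in ER+ cells, 41 and 53 in ER- cells and 27 and 17 in basal cells. Groups overlapped with most of their neighbours in the order of means. The mean over stages was lower in ER+ than in ER- cells by a difference of -1.02 ± 0.35 (SE) with adjusted p = 0.0435 (limma), and only 8 of 29 alternatives kept this call. No difference of Atp2b2 between pregnancy and either other stage was called.

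**Figure D3:**
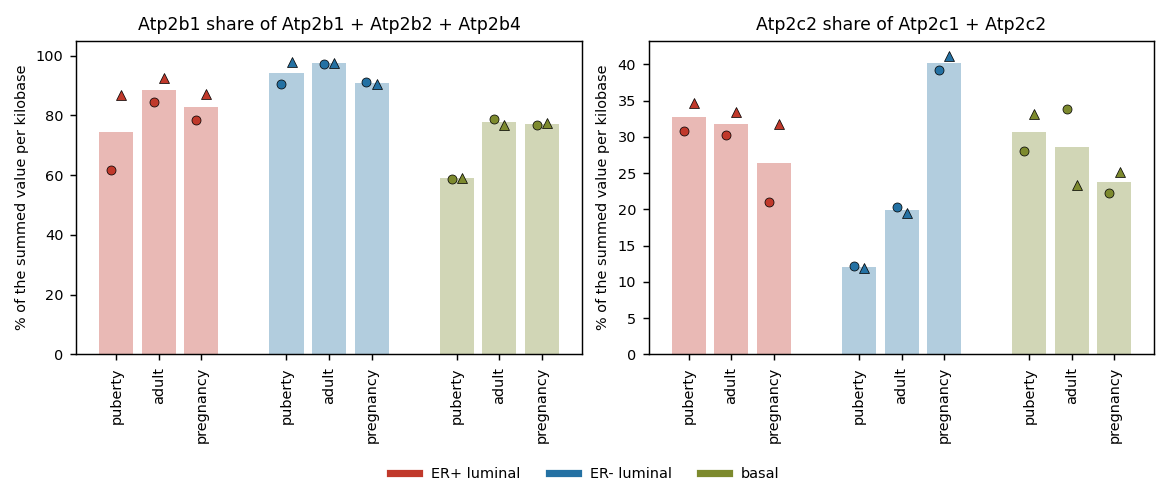
Share in percent (vertical axis, from 0) of Atp2b1 in the summed per-kilobase value of the 3 plasma membrane pumps (left) and of Atp2c2 in that of the 2 Golgi pumps (right), by population and stage. Bars are means, circles replicate 1 and triangles replicate 2; the Atp2c2 share in ER- cells is 12.2% and 11.9% at puberty and 39.2% and 41.2% in pregnancy.

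Per kilobase, Atp2b1 made up 90.4% to 97.8% of the summed plasma membrane pumps in ER- libraries and 58.8% to 78.7% in basal ones, with 61.9% to 92.5% in ER+ libraries. Most of the remainder was Atp2b4, since Atp2b2 made up 0.244% to 1.40%. The lowest luminal share, 61.9%, was that of pubertal ER+ replicate 1, the library with the basal and endothelial markers named above. These shares describe RNA and were not tested.

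The Golgi pumps behaved differently from each other. Atp2c1, the ubiquitous pump SPCA1, varied least of the set between groups, and no difference between pregnancy and either other stage passed the test in any population. The gene lies at chr9:105403539-105527319, minus strand, and 19.0% of its exon length overlaps the gene Aste1 on the opposite strand, whose reads cannot be told apart because the use of strand in counting is not stated. Its values were 4788 and 5292 at puberty, 4452 and 5056 in adults and 5407 and 4683 in pregnancy in ER+ cells. In ER- cells they were 3840 and 4145, then 3075 and 3102, then 3634 and 4675. In basal cells they were 2613 and 2952, then 3080 and 2452, then 2635 and 2901. ER+ cells were highest and basal cells lowest, with a spread of 1.82-fold between the highest and lowest group means. The ER+ minus ER- difference was 0.41 ± 0.09 (SE) with adjusted p = 0.00317 (limma), and the basal minus luminal difference was -0.63 ± 0.08 with adjusted p = 1.1e-05. From puberty to pregnancy the 95% interval of the change was -0.34 to 0.33 in ER+ cells, -0.29 to 0.38 in ER- cells and -0.34 to 0.33 in basal cells.

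Atp2c2, the pump SPCA2 found in secretory epithelia, rose in ER- cells in pregnancy. The gene lies at chr8:119700009-119757717, plus strand. In ER- cells it was at 177 and 186 at puberty, 260 and 251 in adults and 778 and 1089 in pregnancy. In ER+ cells it was at 708 and 934, then 644 and 842, then 478 and 727. Basal cells held 339 and 487, then 523 and 249, then 251 and 325. Before pregnancy every ER+ library was above every ER- library, whereas in pregnancy both ER- libraries were above both ER+ libraries. The ER+ minus ER- difference was 2.16 ± 0.33 (SE) at puberty with adjusted p = 0.000382, 1.52 ± 0.33 in adults with adjusted p = 0.0055 and -0.64 in pregnancy with adjusted p = 0.416 (limma).

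In ER- cells the mean of Atp2c2 in pregnancy was 5.14-fold that of puberty, a log2 difference of 2.34 ± 0.33 (SE) with adjusted p = 0.000407 (limma), and against adults the difference was 1.85 ± 0.33 with adjusted p = 0.00274. The differences from puberty to pregnancy did not pass the test in ER+ and basal cells, at -0.46 and -0.51. The change in ER- cells exceeded that in ER+ cells by 2.80 ± 0.47 with adjusted p = 0.00506 and that in basal cells by 2.84 ± 0.47 with adjusted p = 0.0126 (limma). The last call was lost without pubertal ER- replicate 2, either pregnancy basal replicate or pregnancy ER- replicate 2, with adjusted p of 0.0527 to 0.0904. In ER- cells the summed basal markers were higher in pregnancy (38358 and 35829) than at puberty (14280 and 3580) and in adults (5424 and 6334). The summed ER- luminal markers were lower than at puberty, though Elf5 and Lbp were not, as given above. The part of these markers in the rise of Atp2c2 or Slc30a4 was not tested. Per kilobase the share of Atp2c2 in both Golgi pumps went from 12.2% and 11.9% at puberty through 20.3% and 19.6% in adults to 39.2% and 41.2% in pregnancy in ER- cells. In ER+ libraries it lay between 21.0% and 34.7% and in basal libraries between 22.3% and 33.8%.

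From puberty to pregnancy 3 of the 10 genes were called in ER- cells (14.8% of all genes), 2 in ER+ cells (13.1%) and 1 in basal cells (2.07%). From adulthood to pregnancy 3 were called in ER- cells (14.4%) and 3 in ER+ cells (17.9%). None was called in basal cells (7.26% of all genes, limma), where no gene had an unadjusted p under 0.05 and the count was 0 in edgeR and DESeq2 as well. The change in ER- cells differed from that in ER+ cells for 2 genes (2.31% of all genes) and from that in basal cells for 2 (0.627%), Atp2b1 and Atp2c2 in both tests. The median change from puberty to pregnancy over the 10 genes was 1.13 in ER+, 0.41 in ER- and -0.10 in basal cells, against 0.13, 0.03 and -0.02 over all genes.

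**Figure D4:**
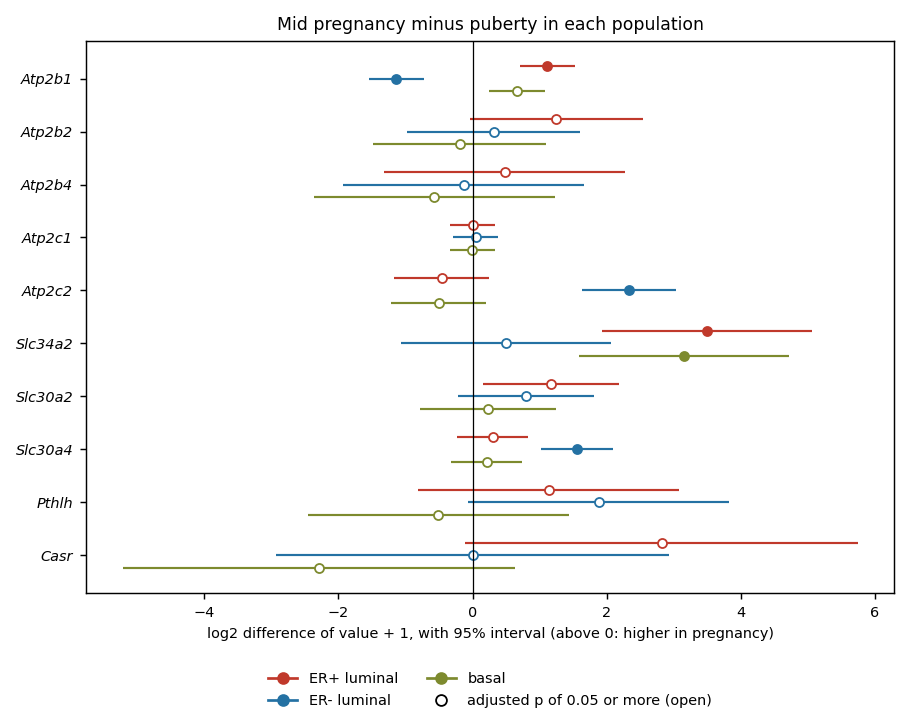
Mid pregnancy minus puberty on the log2 scale (horizontal axis) for the 10 genes in each population, points with 95% intervals, filled where the adjusted p is under 0.05. Atp2c2 and Slc30a4 rose in ER- cells by 2.34 and 1.56, Slc34a2 in ER+ and basal cells by 3.49 and 3.15, and the 3 points of Atp2c1 lie close to 0.

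Slc34a2, the sodium-phosphate cotransporter NaPi-IIb known in the apical membrane of epithelia, had the widest range of the set in luminal cells, from 9 and 16 in adult ER+ cells, which stand for 1 and 2 reads, to 1585 in pregnancy ER- replicate 2. It lies at chr5:53038081-53071664, plus strand. ER- cells held 755 and 851 at puberty, 212 and 289 in adults and 815 and 1585 in pregnancy. ER+ cells held 67 and 32, then 16 and 9, then 262 and 1073. Basal cells held 15 and 53, then 201 and 71, then 215 and 312. At puberty and in adults each ER- library was above each ER+ library, whereas in pregnancy the populations overlapped. The ER+ minus ER- difference was -4.08 ± 0.72 (SE) at puberty with adjusted p = 0.00201, -4.25 ± 0.72 in adults with adjusted p = 0.00159 and -1.10 in pregnancy with a 95% interval of -2.66 to 0.47 and adjusted p = 0.559 (limma).

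In ER+ cells Slc34a2 was higher in pregnancy than at puberty by 3.49 ± 0.72 (SE) with adjusted p = 0.00594 and than in adults by 5.35 ± 0.72 with adjusted p = 0.000282 (limma), against adult libraries of 1 and 2 reads. Replicate 2 of pregnancy ER+ cells, the library with the most Elf5 of its group, also had the higher Slc34a2. Without it the differences were 2.47 with adjusted p = 0.0709 and 4.33 with adjusted p = 0.00291, and without pubertal ER+ replicate 2 the first was 2.97 with adjusted p = 0.0744. In basal cells the change from puberty was 3.15 ± 0.72 with adjusted p = 0.0438, which 17 of 28 alternatives kept. The rise from puberty was thus called in ER+ and basal cells, and neither call held in every alternative. In ER- cells the change from adults was 2.19 with adjusted p = 0.0599 (95% interval 0.63 to 3.76), and the test of ER- against ER+ change from puberty gave -2.98 with adjusted p = 0.181 (limma). Basal cells were below the mean of both luminal populations by a difference of -1.08 ± 0.36 with adjusted p = 0.0287, a call kept in 22 of 28 alternatives and lost in edgeR (0.151) and without pubertal basal replicate 1, adult basal replicate 2, adult ER+ replicate 1 or pregnancy basal replicate 1 (0.0543 to 0.109).

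**Figure D5:**
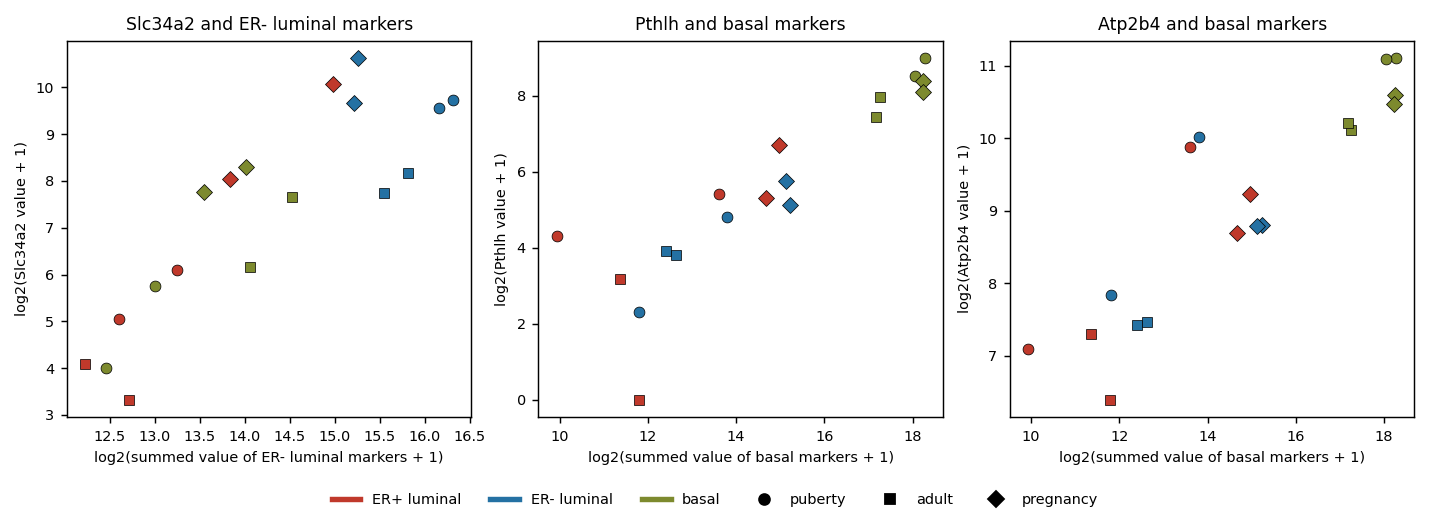
Slc34a2 against the summed ER- luminal markers (left), and Pthlh (middle) and Atp2b4 (right) against the summed basal markers, all as log2 of value + 1, 1 point per library, colours for population and shapes for stage. The pregnancy ER+ library with summed ER- luminal markers of 32227 has Slc34a2 at 1073 and the other, with 14671, has it at 262.

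Across libraries Slc34a2 tended to be higher where the summed ER- luminal markers were higher, with exceptions in several groups. Adult and pregnancy ER- libraries break this order, since marker sums of 47874 and 57798 in adults went with Slc34a2 of 212 and 289, and sums of 38124 and 39279 in pregnancy with 815 and 1585. Pregnancy ER+ replicate 2, with a sum of 32227, had Slc34a2 at 1073, above pubertal ER- cells, with sums of 73091 and 81491 and Slc34a2 of 755 and 851. In adult basal cells replicate 1, with 23548, was higher in Slc34a2 (201) than replicate 2, with 17006 (71). That replicate 2 was in turn below pregnancy ER+ replicate 1, with 14671 and Slc34a2 at 262. Adult ER+ cells ran the other way, with sums of 4805 and 6740 and Slc34a2 of 16 and 9. The part of these markers in the rise of Slc34a2 in ER+ and basal cells was not tested.

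Slc30a4, the zinc exporter ZnT4 that loads zinc into vesicles and whose loss in mice is known to give zinc-poor milk, rose in ER- cells in pregnancy. It lies at chr2:122681233-122702663, minus strand, and 2.37% of its exon length overlaps 4930417H01Rik on the opposite strand. ER- cells held 1685 and 1830 at puberty, 1841 and 1579 in adults and 4159 and 6421 in pregnancy. ER+ cells held 2667 and 2734, then 2102 and 2071, then 2361 and 4670. Basal cells held 2078 and 2209, then 2678 and 2349, then 2306 and 2666. Both pregnancy ER- libraries were above every pubertal and adult library, and pregnancy ER+ replicate 2 was above them too. In ER- cells the change was 1.56 ± 0.25 (SE) from puberty with adjusted p = 0.000985 and 1.60 ± 0.25 from adults with adjusted p = 0.00112 (limma), and both calls were kept in all alternatives run.

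In ER+ cells the change of Slc30a4 from puberty was 0.30 with adjusted p = 0.52 (limma), and it was -0.19 without pregnancy ER+ replicate 2 and 0.79 with adjusted p = 0.0332 without replicate 1. The ER- change exceeded the ER+ change by 1.26 with adjusted p = 0.0814, and by 1.75 with adjusted p = 0.00628 without pregnancy ER+ replicate 2. It exceeded the basal change by 1.35 with adjusted p = 0.113 (limma). Without pregnancy ER- replicate 1 the first of these was 1.57 with adjusted p = 0.0425, so the call of a difference between the luminal populations depends on single libraries.

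Slc30a2, the zinc exporter ZnT2 in which human mutations are known to cause zinc deficiency of breastfed infants, was low in all groups. It lies at chr4:134343181-134354484, plus strand. ER+ cells held 52 and 39 at puberty, 32 and 50 in adults and 85 and 123 in pregnancy. ER- cells held 58 and 36, then 62 and 51, then 71 and 91. Basal cells held 21 and 34, then 18 and 19, then 33 and 30. In reads this was 4 to 38 per library, and 11 libraries held under 20. Basal cells were below the luminal mean by a difference of -1.18 ± 0.24 (SE) with adjusted p = 0.000881 (limma), a call kept in all 28 alternatives. In pregnancy both ER+ and both ER- libraries were above the pubertal and adult libraries of their population, yet no change was called. In ER+ cells the change from puberty was 1.17 with a 95% interval of 0.15 to 2.18 and adjusted p = 0.13 (limma).

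Pthlh, which encodes parathyroid hormone-related protein, the hormone that mobilises bone calcium in lactation and also guides early mammary development, was a basal gene at these stages. It lies at chr6:147252101-147264183, minus strand. Basal cells held 510 and 368 at puberty, 249 and 174 in adults and 336 and 275 in pregnancy. ER+ cells held 42 and 19, then 8 and 0, then 103 and 39. ER- cells held 27 and 4, then 14 and 13, then 34 and 53. Every basal library was above every luminal library, with a basal minus luminal difference of 4.02 ± 0.46 (SE) and adjusted p = 5.02e-06 (limma). Of the 18 libraries 10 held under 20 reads of it. In ER+ cells it was higher in pregnancy than in adults by 4.43 ± 0.91 with adjusted p = 0.00381, a value that depends on an adult library at 0, and no other difference between pregnancy and another stage was called. The summed basal markers were 32120 and 26123 in pregnancy ER+ cells and 2635 and 3557 in adult ER+ cells. Fibroblast markers were at 82111 and 39933 against 8731 and 6964 (6 of 8 called higher, limma). Endothelial markers were at 4259 and 2652 against 431 and 331 (4 of 8 called higher). The part of these markers in the difference was not tested.

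Casr, the G protein-coupled calcium-sensing receptor by which mammary cells are known to adjust calcium transport and Pthlh to the supply, was barely detected. It lies at chr16:36493696-36562141, minus strand. In all libraries together there were 19 reads, and 11 libraries held none. Pregnancy ER+ cells accounted for 11 of these reads, 9 of them in replicate 2 with a scaled count of 30. ER- cells held 0 reads at puberty and in pregnancy, which allows a scaled count of up to 2.86 and 5.37 over each group (3 reads, counting error only). No difference of Casr was called in any comparison, and its level was not detectable at this depth in 4 groups.

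The other calcium genes were taken from a list of 35, of which 31 were tested. Between ER+ and ER- cells 6 were higher and 7 lower (10.3% and 15.2% of all genes), and in basal against luminal cells 13 were higher and 6 lower (20.9% and 21.5%). From puberty to pregnancy 4 rose and 3 fell in ER+ cells, 1 rose and 3 fell in ER- cells, and 1 rose in basal cells, where 13.1%, 14.8% and 2.07% of all genes were called. Itpr2, a receptor that releases calcium from the endoplasmic reticulum, moved like Atp2b1. It was at 7580 and 7648 in pubertal and 2258 and 2933 in pregnancy ER- cells, and at 2002 and 1638 against 12065 and 6352 in ER+ cells. The difference between these changes was -3.84 ± 0.32 (SE) with adjusted p = 4.12e-05 (limma). In ER- cells Tmem165, a Golgi protein linked to calcium and manganese, rose by 0.70 (adjusted p = 0.0394), and Orai2 and Stim1 of store-operated entry fell by 1.47 and 0.71 (adjusted p of 0.0171 and 0.0274, limma). Other genes of this entry were not called in ER- cells. Orai1 was at 531 and 462 at puberty and 774 and 1138 in pregnancy, and Stim2 at 1322 and 1355, then 1434 and 1863. Orai3 was at 330 and 314, then 293 and 391. Trpv6, an epithelial calcium channel, was at 10 to 65 in luminal libraries and 116 to 289 in basal ones, a difference of 2.89 with adjusted p = 1.29e-06 (limma).

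Of 12 other phosphate genes 9 were tested, of which 4 rose in ER+ cells and 1 in ER- cells from puberty to pregnancy, against 13.1% and 14.8% of all genes called. In basal cells limma called none, with 3 at an unadjusted p under 0.05, while edgeR called 2 and DESeq2 3. Slc20a1, the phosphate importer Pit1, was called in both luminal populations. It was at 593 and 394 in pubertal ER+ cells, against 2130 and 2955 in pregnancy, and at 2279 and 2775 in pubertal ER- cells, against 4630 and 4653. Adult ER+ cells held 706 and 652. Adult ER- cells held 4765 and 3691, which overlapped the ER- values of pregnancy. The differences from puberty to pregnancy were 2.37 with adjusted p = 7.58e-06 and 0.88 with adjusted p = 0.013, and the ER- change was smaller than the ER+ change by a difference of -1.49 with adjusted p = 0.0174 (limma). Xpr1, the phosphate exporter, rose in ER+ cells by 1.13 (adjusted p = 0.00388). Kl, the FGF23 co-receptor, was at 113 and 139 in pregnancy ER+ cells and at 0 in pubertal and adult ER+ cells.

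Of 26 other zinc genes 23 were tested, and 3 rose from puberty to pregnancy in each luminal population, against 13.1% and 14.8% of all genes called in ER+ and ER- cells. In basal cells limma called none, with 2 at an unadjusted p under 0.05, while edgeR and DESeq2 called 1 each. Slc39a4, the zinc importer ZIP4, was called in both, from 27 and 44 to 569 and 1029 in ER- cells and from 27 and 29 to 206 and 553 in ER+ cells. The differences were 4.43 with adjusted p = 4.3e-05 and 3.55 with adjusted p = 0.000158 (limma). In basal cells it was at 406 and 266 at puberty and 159 and 305 in pregnancy, and the ER- change exceeded the basal change by 5.01 ± 0.67 (SE) with adjusted p = 0.00408. In ER- cells Slc39a11, another zinc importer, rose by 1.89 (adjusted p = 0.00439), and Slc30a7, a zinc exporter of the secretory pathway, by 0.56 (adjusted p = 0.0155, limma). Mt2, a zinc-binding metallothionein, was at 3239 to 9572 in adult luminal libraries, against 151 to 406 in pubertal and 125 to 534 in pregnancy luminal libraries. Adult basal libraries held 332 and 2040. The adult luminal libraries thus stood apart from both other stages, and they were the shallowest of the series, at 2406265 to 3165245 reads.

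Of 18 partners of Pthlh and Casr 15 were tested, and 6 were higher and none lower in basal than in luminal cells, where 20.9% and 21.5% of all genes were, and endothelial markers were higher there as well, with the largest differences in Ramp3 at 2.87 and Ramp2 at 1.99 (adjusted p of 0.000255 and 1.75e-05, limma), accessory proteins of the calcitonin receptor family. Pth1r, the receptor for the product of Pthlh, was at 61 to 107 in basal and 16 to 76 in luminal libraries, a difference of 1.13 with adjusted p = 0.00215. From puberty to pregnancy 3 rose and 1 fell in each luminal population (13.1% and 14.8% of all genes called), while in basal cells limma called none (4 at an unadjusted p under 0.05), edgeR 1 and DESeq2 2. Vdr, the vitamin D receptor, rose by 1.45 in ER+ and 1.29 in ER- cells (adjusted p of 0.0037 and 0.00904), and Ramp1 fell by 1.83 and 3.17 (0.00284 and 7.13e-05, limma). In ER+ cells Vdr was at 1190 and 1239 at puberty and 2165 and 5109 in pregnancy, highest in the replicate 2 with the most Elf5. In ER- cells it was at 2406 and 2598, then 5161 and 7262. Calca, which encodes calcitonin, was at 4 and 11 in pubertal ER+ cells and 28214 and 14970 in pregnancy ER+ cells, with 731 and 609 in pregnancy ER- cells. Of 14 milk protein genes 10 rose and 1 fell in ER+ cells over the same interval. For ER- cells 4 rose and 2 fell, and for basal cells 7 rose, where 2.07% of all genes were called. Summed, these genes stood at 195108 and 252125 in pubertal ER- libraries, against 17366 to 28830 in the other pubertal libraries. The pregnancy sums were 902693 then 157289 (ER-), 376259 then 903484 (ER+) and 324455 then 451377 (basal). These counts do not rank the populations by induction, and the part of RNA from other populations was not tested.

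The genes most like each member were ranked by Pearson's r of log2(value + 1) over the 18 libraries, which share groups of 2 and their depth, so r is given as a description. Atp2b1 was closest to Flrt3 (r = 0.971) and to Mfge8 (0.965), which encodes a milk fat globule protein. Slc34a2 was closest to Cytip (0.958) and Lipa (0.957), and Atp2b4 to Lrrc8c (0.977) and Cspg4 (0.972), of which the last is a pericyte marker in the lists used here. Pthlh was closest to Cacna1g (0.967) and Bcl11b (0.962), and Atp2c1 to Erbb2 (0.953). For Slc30a4, Slc30a2 and Atp2c2 the nearest genes were Ptchd3 (0.890), Osbpl7 (0.885) and Lgals12 (0.870). For Slc30a4 the nearest gene is itself at 0 to 23 in every library, and the correlation then rests on a few reads.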

How the data were processed

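Per the labels, RNeasy micro kits gave the RNA and Ovation Solo kits the libraries. The authors' deposited table holds a whole-number signal for every gene in each library. The submitters' processing notes name STAR, Picard, HTSeq and GRCm38, and give no versions, strand setting or duplicate handling here. Library totals lay between 19819213 and 19881049 after repeated gene IDs were reduced to the row with the highest mean (46868 rows, 46257 IDs kept). The signal was taken as counts scaled to 20000000 and rounded up. In each library the recovered reads returned at least 99.7% of non-zero values exactly. Without allowance for rounding only 3 adult luminal libraries passed that test, so depths of the other 15 rest on inferred rounding.

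The test was limma 3.58.1 (trend, robust) in R 4.3.3 on log2(value + 1), with 1 mean per group, 9 residual degrees of freedom and 22315 genes that reached 10 in 2 or more libraries. The fit across all genes was also run on simulated data, and since the outcome is not given here it lends the results no support. A log2 difference on this scale understates changes of low genes. Intervals are 95%. Alternatives were a pseudocount of 10, no filter or a filter at 50, quantile and median-ratio scaling, the compared groups alone, a replicate block, each library left out, no adult or no pregnancy libraries, and edgeR 4.0.16 and DESeq2 1.42.0 on recovered reads. The 10 genes, the lists and the tests were chosen with earlier results of these data known. All 10 genes are named, with list genes limited to called ones, at most 6 per list and comparison by size, and the 3 nearest genes by Pearson's r, of which the text prints a part. Positions are from GENCODE vM21 and promoters from RefSeq GRCm38.p6. Exon lengths are unions of annotated exons, which can exceed the transcript present.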

Additional observations from a re-analysis of the deposited data

Results flagged for a closer look

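The change from puberty to pregnancy differed between populations for Atp2b1 and Atp2c2 by a test of the difference itself (limma). For Atp2b1 the ER- minus ER+ difference of changes was -2.25 on the log2 scale, with both ER- libraries lower and both ER+ libraries higher in pregnancy, and the ER- minus basal difference was -1.80. For Atp2c2 the ER- minus ER+ difference was 2.80 and the ER- minus basal difference 2.84, with both ER- libraries higher in pregnancy.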

How the results depend on the processing

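Of 130 pairs of gene and comparison 36 were called, 17 of them in every alternative run, 16 were called only in an alternative, and 78 were never called, 29 of those with a change of sign. The number of the 10 genes called moved by over 1.5 times as follows. With the compared groups alone it was 0 for ER+ against ER- in adults (main value 4), 0 in pregnancy (1), 0 for pregnancy against puberty (2) and against adults (3) in ER+ cells, and 3 for pregnancy against puberty in basal cells (1). That fit called 0 of all 22315 genes in the first and in pregnancy against adults in ER+ cells, where 5285 and 5788 had an unadjusted p under 0.05. The ER+ against ER- count in pregnancy was also 0 with median-ratio factors, edgeR or without the 6 adult libraries. The basal count for pregnancy against puberty was 0 with edgeR or without the adult libraries and 2 with DESeq2. Without the adult libraries the ER+ against ER- count over stages was 3, and without the pregnancy libraries, added after seeing the data, the basal against luminal count was 4. Leaving out each library in turn gave 5 to 7 for basal against luminal, 4 to 5 for ER+ against ER- over stages, 3 to 4 at puberty, 3 to 5 in adults and 0 to 2 in pregnancy. It gave 1 to 3, 3 to 3 and 0 to 2 for pregnancy against puberty in ER+, ER- and basal cells, and 3 to 4, 2 to 4 and 0 to 0 for pregnancy against adults. For the ER- change against the ER+ and basal changes it gave 2 to 3 and 0 to 3. Slc30a4 changed sign. Its ER+ minus ER- difference over stages, 0.091, was -0.0087 without the adult libraries and -0.073 to 0.26 with each library left out, below 0 without pregnancy ER+ replicate 2 or pregnancy ER- replicate 1. Its ER+ change from puberty, 0.30, was -0.19 to 0.79, below 0 without pregnancy ER+ replicate 2. Under quantile scaling the median over all genes went from -0.11 to 0.032 for ER+ against ER- over stages and from 0.21 to -0.11 for pregnancy against adults in ER+ cells. The share of calls that are higher went from 40.5% to 53.2% for ER+ against ER- over stages, 32.4% to 49.2% in adults, 49.3% to 39.1% for basal against luminal, 71.8% to 49.9% and 61.7% to 45.9% for pregnancy against adults in ER+ and ER- cells, and 59.3% to 47.8% against puberty in ER- cells. With median-ratio factors the last 2 were 48.7% and 43.4%. No called difference of the 10 genes changed sign in any alternative. The replicate block raised the adult ER+ against ER- count to 5 and changed no other count, and since libraries with the same number in different groups deviated with r of -0.0884 to 0.269, the numbers were taken as names only, not as a pairing. The causes of these changes were not tested. Depth limits Atp2b2, Slc30a2, Pthlh, Casr and Slc34a2, with 16, 11, 10, 18 and 5 libraries under 20 reads.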
